A study of Mus musculus with 15 samples.

Results

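Liver RNA of mice fed a diet without methionine, choline and folate was compared with liver RNA of mice fed a base diet. Libraries were chosen by their diet label alone, 5 labelled MCD and 5 labelled BD, which makes 10 of the 15 libraries of the series. The other 5 carry the label HFD and enter here only for the shared estimate of spread and to test whether a change on MCD also differed at equal fat. All 3 groups were male C57Bl/6J mice, an inbred laboratory strain with no engineered allele named in the labels, and RNA came from the pulverized left lobe. BD is a diet of 4% fat, HFD one of 31% fat, and MCD one of 31% fat from which the 3 nutrients were left out. Every animal had been dosed with the vehicle only (5% Alkmauls El-620 in saline, as the labels spell it) and was sampled 24 h later. Age is not given in the sources used here. The series asks how fatty liver changes the handling of the solvent tetrachloroethylene, and no library described here comes from a mouse given that solvent.

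The liver makes phosphatidylcholine, the coat lipid of very low density lipoprotein (VLDL), from dietary choline or by methylation of phosphatidylethanolamine with S-adenosylmethionine. Rodents deprived of methionine and choline cannot export triglyceride normally, so their hepatocytes fill with fat, and inflammation, hepatocyte death and pericellular fibrosis follow. The condition is used as a model of steatohepatitis, with the known limit that the animals lose weight and are not insulin resistant. Because MCD differs from BD in fat content as well as in the 3 nutrients, a difference between these diets cannot be assigned to either one alone. MCD against HFD, at 31% fat in both, is the contrast that holds fat constant.

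Gene counts per library ran from 3704642 to 22338718 in BD and from 9146731 to 23131089 in MCD, and 3 counts were worth 0.130 to 0.810 counts per 1e6 gene counts (CPM) across the libraries. Alignments without a unique position numbered 1.49 to 2.80 per gene count in BD and 1.19 to 1.66 in MCD. The BD samples carry numbers far from those of the other diets in the labels, and whatever follows the numbering and the base diet cannot be told apart. Whether each library is its own animal is not stated, and the p-values therefore reflect spread among samples that may be technical. On the first principal component (37.1% of the variance) BD lay between -37.8 and -21.1 and MCD between 15.6 and 39.4. HFD replicate 2 stood apart from its group at 28.4, against -12.7 to -0.415 for the other HFD libraries, and MCD replicate 3 was the lowest MCD library. Whether the library labelled HFD replicate 2 carries its own label cannot be settled from the files, which limits what every MCD against HFD value below means. In bulk RNA, fewer cells of a type and less RNA per cell cannot be told apart. That holds for every marker below. The labelled tissue matched its defining genes. Alb (albumin) stood at 90500 to 134400 CPM in MCD and at 95350 to 117100 in BD, while the pancreatic genes Prss2 and Pnlip and the adipose gene Lep had no count in any library.

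A change was called at an adjusted p under 0.05 (edgeR quasi-likelihood F test, two-sided, Benjamini-Hochberg over 12193 genes), and every adjusted p below is from that test. MCD livers differed from BD livers in 2610 genes (21.4%). Of these, 1557 were higher (12.8%) and 1053 were lower (8.64%), and the median log2 fold change over all genes tested was -0.03. The increases were larger: 649 genes rose more than 2-fold (5.32%) and 150 fell more than 2-fold (1.23%). For 1134 genes all 5 MCD libraries lay above all 5 BD libraries (9.30%), and for 739 they lay below (6.06%), together 15.4%. The split rests on scaling: without TMM factors, which moved the median of all genes by 0.14 log2, 2820 genes were called, 2308 higher and 512 lower. Between MCD and HFD, 384 genes were called (3.15%), 271 higher (2.22%) and 113 lower (0.927%). That smaller count depends on single libraries. It was 1248 without HFD replicate 2, and 181, 156, 74 and 155 without HFD replicates 1, 3, 4 and 5. It was 113, 142 and 220 without MCD replicates 1, 4 and 5. Group counts against HFD with a library left out, given below, move with these totals and are to be read beside them. The contrasts share libraries, so for each gene or group their values are given side by side only.

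**Figure D1:**
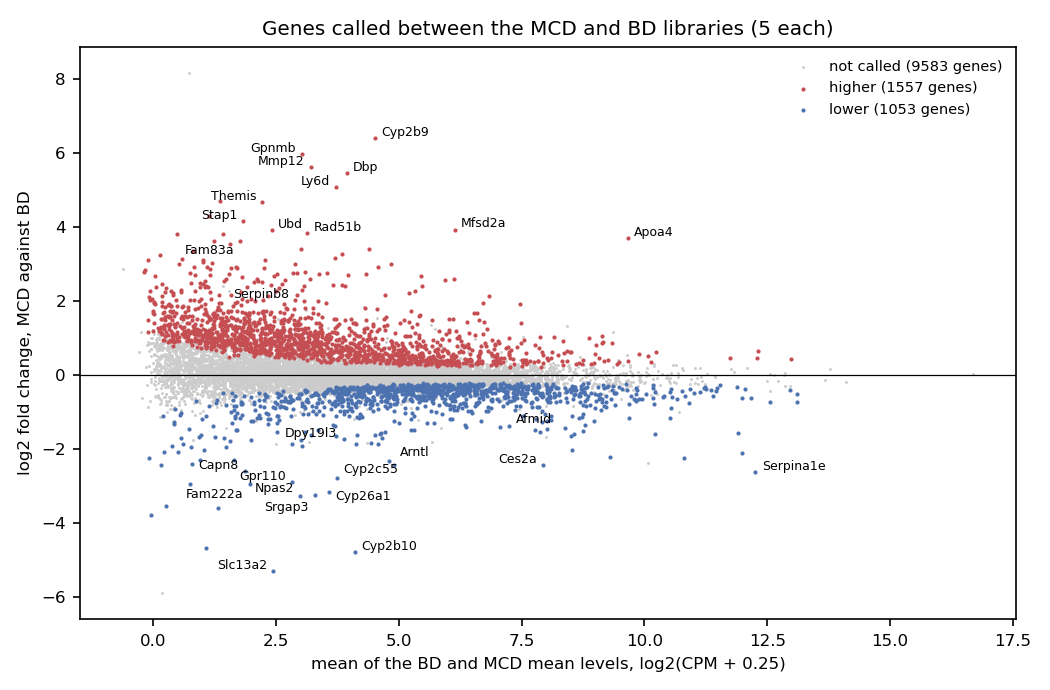
Log2 fold change of MCD against BD for the 12193 genes tested (vertical axis) against the mean level of both diets, log2(CPM + 0.25) (horizontal axis), with 1557 genes called higher in red and 1053 called lower in blue. Labels mark the 12 largest increases and 12 largest decreases among called genes that did not overlap between diets and reached 5 CPM in the higher diet, from Cyp2b9 at 6.40 to Slc13a2 at -5.31, and the genes with the smallest p outside the gene groups.

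The largest single changes included genes of macrophages and of transport. Gpnmb, a glycoprotein of lipid-laden macrophages, Mmp12, the macrophage elastase, and Ly6d, a surface protein of lymphoid and epithelial cells, rose more than 8-fold, as did 30 genes in all (0.246%), and 9 fell more than 8-fold (0.0738%). Gpnmb, Mmp12 and Ly6d were tested only through MCD, since fewer than 5 BD and HFD libraries reached the count filter's level of 0.970 CPM. How many of the 30 were tested only through MCD was not counted. Among called genes that reached 5 CPM and did not overlap, the largest decrease was in Slc13a2, a sodium-coupled citrate and dicarboxylate carrier (chromosome 11, 78397276 to 78422281). It stood at 13.6, 8.88, 10.1, 12.2 and 5.99 CPM in BD replicates 1 to 5 and at 0.157, 0.312, 0.447, 0.115 and 0.203 in MCD. Every MCD library lay below every BD library, with a log2 fold change of -5.31 ± 0.39 (SE) and an adjusted p of 6.01e-08. MCD against HFD gave -0.13 (adjusted p = 0.933). Among genes that belonged to none of the gene groups, the smallest p-values were those of Stap1, a signalling adaptor, which rose (4.15 ± 0.25, adjusted p = 3.97e-09), and Ces2a, a hydrolase of esters and amides, which fell (-2.43 ± 0.17, adjusted p = 4.89e-08). Afmid, an enzyme of tryptophan breakdown, and Dpy19l3 fell by 1.37 and 1.74 on the log2 scale, and Serpinb8, a protease inhibitor, rose by 2.01.

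Of the 12193 genes tested, 406 reached the count filter's level only with the MCD libraries, and 167 of the 1557 higher genes are among them. To describe the response by function, 46 gene groups were drawn up, which share some members. Groups of at least 10 tested members are shown in the plot of shares. Among these groups, shares above the background of 12.8% were highest in mitosis, recruited macrophages, collagen, MHC class II and matrix remodelling. These shares include higher members tested only through MCD: 11 in mitosis, 3 in matrix remodelling, 1 in collagen and 0 in MHC class II. The recruited macrophage list was not counted in this way. Shares above the 8.64% background of lower genes were highest in the periportal zone, xenobiotic P450 enzymes and methionine, choline and folate metabolism.

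**Figure D2:**
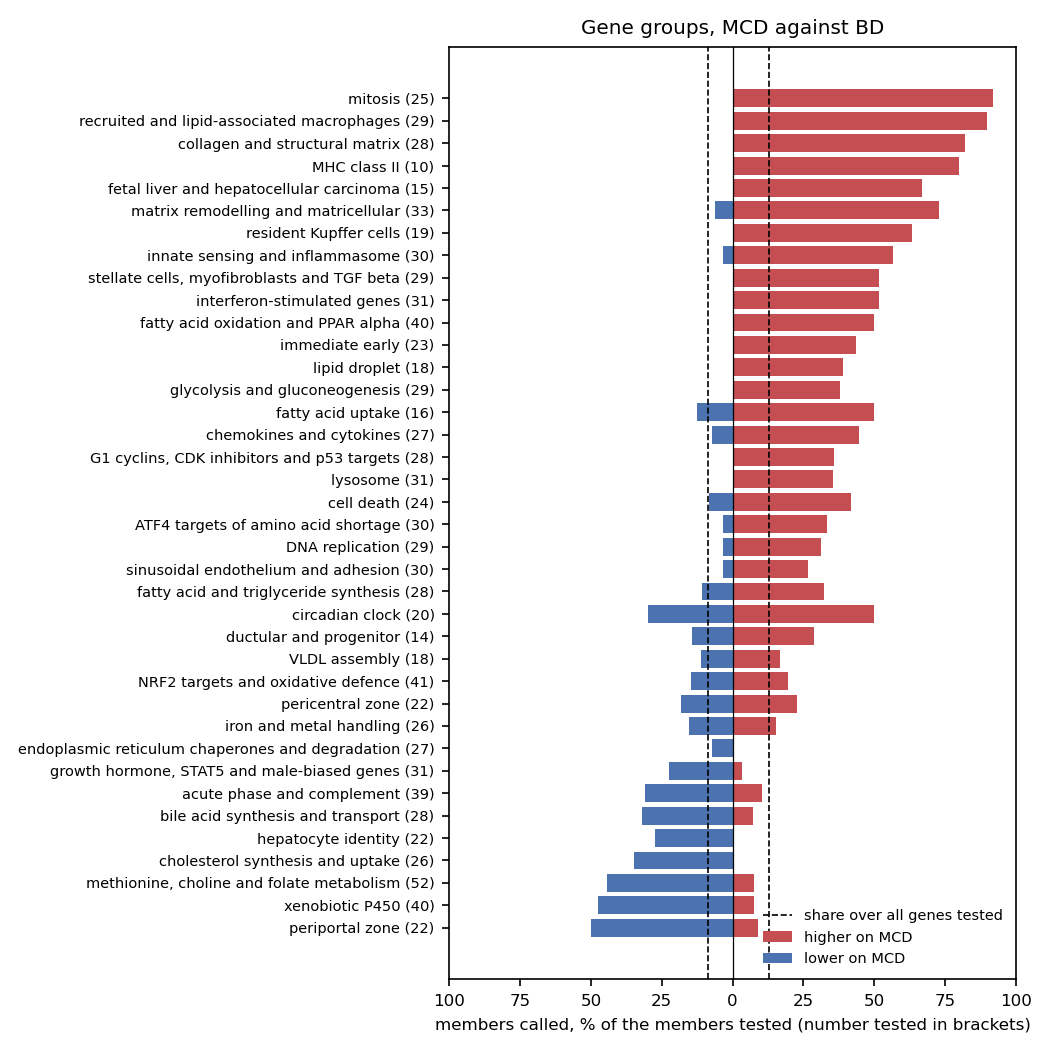
Share of the tested members of 38 gene groups that were called higher (red, to the right) or lower (blue, to the left) on MCD than on BD, in percent, with the number tested in brackets. Dashed lines give the same shares over all genes tested, 12.8% and 8.64%, and the longest bars are those of mitosis (92.0% higher) and the periportal zone (50% lower).

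Genes of fat storage rose. Lipid droplets are coated by perilipins and grow by fusion through CIDE proteins, and 7 of 18 tested members were higher (38.9%) and 0 were lower, with a median log2 fold change of 0.41. Plin2, the main coat protein of hepatocyte droplets, was measured at 523, 449, 509, 360 and 446 CPM in BD and at 969, 832, 824, 784 and 758 in MCD, with no overlap (0.87 ± 0.11, adjusted p = 4.72e-05). Plin4 (chromosome 17, 56100587 to 56109948), a perilipin of growing droplets, stood between 8.39 and 16.8 CPM in the BD libraries and at 112, 48.4, 42.5, 104 and 67.9 in MCD. The diets did not overlap, MCD replicates 1 and 4 were the highest, and the log2 fold change was 2.66 ± 0.53 (adjusted p = 0.00313). Cidec, which fuses droplets, went from 1.99, 4.95, 3.71, 1.28 and 1.37 CPM to 40.5, 13.4, 10.9, 35.4 and 28.5 (3.27 ± 0.90, adjusted p = 0.0209, or 0.0516 without BD replicate 5). The same MCD libraries, 1 and 4, were high for it. Mgll, a lipase of monoglycerides, and Hsd17b13, a droplet enzyme, rose by 0.95 and 0.57 on the log2 scale. These 5 genes were not called between MCD and HFD, where 1 member was lower, the lipase cofactor Abhd5. Without HFD replicate 2, 4 members were higher on MCD than on HFD and 2 were lower.

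Fatty acid uptake followed, with 8 of 16 members higher (50%) and 2 lower. Cd36, a fatty acid carrier of the plasma membrane (chromosome 5, 17781690 to 17888959), was at 94.3, 69.3, 97.7, 51.6 and 60.4 CPM in BD and at 414, 225, 209, 346 and 196 in MCD. The groups did not overlap (1.90 ± 0.50, adjusted p = 0.0151), and the call ended with a covariate for non-unique alignments (adjusted p = 0.0638). Mfsd2a, a carrier of lysophosphatidylcholine, rose from 2.84, 10.01, 10.4, 14.1 and 5.10 CPM to 86.4, 94.0, 90.5, 157 and 230 (3.93 ± 0.44, adjusted p = 6.22e-05). HFD values of Mfsd2a, 59.01 to 185 CPM, covered much of that range, and MCD against HFD gave -0.01 (adjusted p = 0.992). Fabp1 and Fabp2, cytosolic fatty acid binding proteins, rose by 0.64 and 1.67. Slc27a5, which activates bile acids and fatty acids, and Lipc, hepatic lipase, were the members that fell. Fabp5 was not called against BD (-0.96 ± 0.47, adjusted p = 0.172) and was lower than on HFD (-2.35, adjusted p = 0.0181).

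Synthesis of fatty acids and triglyceride was mixed, with 9 of 28 members higher (32.1%) and 3 lower. Fads2, the desaturase that starts polyunsaturated fatty acid synthesis, rose by 1.05 ± 0.14 (adjusted p = 7.09e-05), and Pklr, liver pyruvate kinase, by 0.99 ± 0.18 (adjusted p = 8.15e-04). Mlxipl, the carbohydrate-response factor ChREBP, fell by 0.72 ± 0.16 (adjusted p = 0.00301). Core lipogenic genes did not pass the test: Scd1 gave 0.16 (adjusted p = 0.719), Fasn -0.30 (adjusted p = 0.598) and Srebf1 -0.66 (adjusted p = 0.111). Without HFD replicate 2, 10 members of this group were lower on MCD than on HFD and 0 were higher, against 2 and 0 with it. In the VLDL group 3 of 18 members rose (16.7%) and 2 fell (11.1%), near the 12.8% and 8.64% over all genes. These 5 calls became 3 without MCD replicate 1. Apoa4, an apolipoprotein of lipid-loaded hepatocytes, rose by 3.71 ± 0.42 (adjusted p = 5.98e-05). Mttp, which loads lipid onto nascent VLDL, was not called against BD (-0.18, adjusted p = 0.177) and was lower than on HFD (-0.45, adjusted p = 0.0160).

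Genes that burn fat rose. Of 40 tested genes for the oxidation of fatty acids or under PPAR alpha, the receptor that senses them, 20 were higher (50%) and 0 were lower, with a median of 0.34. Bdh1, a ketone body enzyme, rose by 0.91 ± 0.10 (adjusted p = 6.06e-06), Vnn1, a pantetheinase, by 1.94 ± 0.25 (adjusted p = 9.94e-05), and Ucp2, a mitochondrial carrier, by 1.59 ± 0.23 (adjusted p = 2.22e-04). No member was called between MCD and HFD (0 of 40, median 0.01), and 2 were higher without HFD replicate 2. In glycolysis and gluconeogenesis 11 of 29 members rose (37.9%) and 0 fell. They included Gys2, liver glycogen synthase (0.80), and the non-hepatocyte isoforms Pkm (0.93), Pfkp (1.10) and Hk2 (1.08), and Pkm was also higher than on HFD (0.70, adjusted p = 0.0316).

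Cholesterol synthesis moved the other way: 0 of 26 members were higher and 9 were lower (34.6%), with a median of -0.41. Tm7sf2, a sterol reductase, fell by 0.91 ± 0.16 (adjusted p = 5.99e-04), Ebp, a sterol isomerase, by 0.61 ± 0.13 (adjusted p = 0.00184), and Pmvk, phosphomevalonate kinase, by 1.04 ± 0.24 (adjusted p = 0.00662). Cyp51 (-0.48, adjusted p = 0.0195) lost its call in 7 of 25 alternatives. The count of 9 fell to 5, 3 and 5 without MCD replicates 1, 4 and 5, to 4 and 5 without BD replicates 1 and 4, and to 3 without TMM factors. Of bile acid genes, 9 of 28 fell (32.1%) and 2 rose. Cyp27a1, the sterol 27-hydroxylase of the acidic pathway, stood at 703, 624, 731, 725 and 729 CPM in BD and at 383, 489, 434, 381 and 405 in MCD. All 5 MCD values were below all BD values (-0.75 ± 0.10, adjusted p = 7.09e-05). Akr1d1, a steroid reductase, fell by 0.67, Cyp2c70, which makes the rodent muricholic acids, by 2.04, and Abcb11, the bile salt export pump, by 0.68. Cyp7a1, the rate-limiting enzyme of the classical pathway, was not called (-0.74 ± 0.37, adjusted p = 0.182).

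Specialised hepatocyte functions were lower, while albumin was not called. Of 22 hepatocyte identity genes 6 fell (27.3%) and 0 rose. Alb was not called (0.01 ± 0.11, adjusted p = 0.967). Hnf4a, the nuclear receptor that maintains hepatocyte identity, was at 878, 919, 812, 756 and 846 CPM in BD and at 594, 564, 692, 663 and 743 in MCD, with no overlap (-0.37 ± 0.09, adjusted p = 0.00777). Scaling without TMM factors ended that call (adjusted p = 0.0933). Hpd, of tyrosine breakdown, fell by 0.75 ± 0.13 (adjusted p = 4.20e-04).

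Periportal hepatocytes, which lie where blood enters the lobule, carry the urea cycle and amino acid breakdown. In their group 11 of 22 tested genes fell (50%) and 2 rose. Cps1 (chromosome 1, 67122426 to 67231267), the enzyme that commits ammonia to the urea cycle, was at 6475, 4499, 5901, 6192 and 5485 CPM in BD and at 1308, 1739, 2316, 1789 and 2504 in MCD. The lowest BD library was above the highest MCD library (-1.56 ± 0.21, adjusted p = 1.11e-04). Hal, histidine ammonia lyase, fell by 1.65 ± 0.13 (adjusted p = 1.15e-07), Gls2, liver glutaminase, by 1.43 ± 0.13 (adjusted p = 1.17e-06), and Asl, the urea cycle lyase, by 1.16 ± 0.16 (adjusted p = 1.00e-04). Pericentral genes were split, 5 of 22 higher (22.7%) and 4 lower (18.2%). Rhbg, an ammonium carrier (1.03), and Slc13a3, a dicarboxylate carrier (0.97), were higher, and Cyp2c37 was lower (-1.20). HFD libraries were below BD in 11 periportal members (background 3.27% lower). Between MCD and HFD the 22 periportal members had a median of -0.05, with 2 higher and 1 lower. The summed levels of macrophage and stellate cell markers, given below, rose in the same MCD libraries, and their part in the lower hepatocyte genes was not tested.

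Xenobiotic P450 enzymes oxidise drugs and solvents. Of 40 tested members 19 fell (47.5%) and 3 rose, of which 1, Cyp2b9, was tested only through MCD. HFD libraries were below BD in 16 members (background 3.27% lower) and above BD in 1. Between MCD and HFD 4 members were lower and 1 was higher, with a median of 0.01. Cyp2c29 (chromosome 19, 39287044 to 39330713), an abundant epoxygenase, was at 3186, 2413, 3160, 3082 and 2878 CPM in BD and at 542, 770, 708, 577 and 474 in MCD. The groups were far apart (-2.26 ± 0.14, adjusted p = 4.97e-09), and MCD was also below HFD (-0.66, adjusted p = 0.0157). Cyp2c55 (-2.78), Cyp3a25 (-1.36) and Cyp2b10, the phenobarbital-inducible member (-4.80), fell as well. Cyp2b9 (chromosome 7, 26173350 to 26210661), a P450 that is more abundant in female mouse liver, moved the other way, from 1.14, 0.413, 1.12, 0.427 and 0.142 CPM to 78.3, 7.79, 13.03, 108 and 17.3. Every MCD library was above every BD library, but the MCD libraries themselves differed widely, and HFD replicate 2 stood at 48.6 against 0.0483 to 0.474 CPM in the other HFD libraries. Its log2 fold change of 6.40 ± 1.79 (adjusted p = 0.0229) lost its call in 4 of 25 alternatives and was 3.28 with the covariate for non-unique alignments. P450 families hold near-identical genes, and reads shared between copies are not in these counts, so values of single members are uncertain.

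Genes that use the missing nutrients were lower as a group on MCD, and many were lower on HFD as well. Methionine is converted to S-adenosylmethionine, the methyl donor, and then to homocysteine, which is remethylated with folate or betaine or passed to cysteine by transsulfuration. Of 52 tested genes of methionine, choline and folate metabolism 23 fell (44.2%) and 4 rose (7.69%), with a median of -0.27. HFD libraries were below BD in 17 of these members (background 3.27% lower) and above BD in 0. Between MCD and HFD 4 were lower (background 0.927%) and 1 was higher (background 2.22%), with a median of -0.14. Gnmt (chromosome 17, 46725664 to 46729211), which spends excess S-adenosylmethionine on glycine, was at 1505, 1876, 2457, 1930 and 1115 CPM in BD and at 381 to 791 in the MCD libraries. No MCD library reached the lowest BD library (-1.60 ± 0.20, adjusted p = 5.67e-05). HFD libraries, at 742 to 964 CPM of Gnmt, were also below every BD library. Cth, which makes cysteine from cystathionine, fell by 1.51 ± 0.14 (adjusted p = 1.35e-06) and Cbs, the step before it, by 0.84 ± 0.12 (adjusted p = 1.25e-04). Ahcy, which clears S-adenosylhomocysteine, fell by 0.76, Bhmt, the betaine-dependent remethylase, by 0.81, and Nnmt, a methyltransferase of nicotinamide, was lower too (-1.498).

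Some folate and choline genes were also among those that fell. Aldh1l1, a folate dehydrogenase of the cytosol, fell by 1.16 ± 0.11 (adjusted p = 3.21e-06), and Aldh7a1, which makes betaine, by 0.72 ± 0.08 (adjusted p = 9.77e-06). Chka, choline kinase, was at 115, 109, 107, 134 and 120 CPM in BD and at 43.9, 67.7, 52.3, 29.3 and 35.4 in MCD (-1.36 ± 0.26, adjusted p = 0.00174). HFD libraries held 29.7 to 69.9 CPM of Chka, and MCD against HFD gave -0.03 (adjusted p = 0.965). Pemt, which methylates phosphatidylethanolamine to phosphatidylcholine, was not called (-0.13 ± 0.10, adjusted p = 0.377).

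The genes that rose in this group were Mat2a, Mthfd2, Mthfd1l and Folr2, and 1 of these 4 was tested only through MCD. Mat2a (chromosome 6, 72432796 to 72439556), the S-adenosylmethionine synthetase of extrahepatic and dividing cells, was measured at 75.2, 80.7, 67.3, 79.0 and 100.5 CPM in BD and at 134, 144, 116, 146 and 157 in MCD. Neither BD nor HFD (65.8 to 99.3 CPM) overlapped with MCD. The log2 fold change was 0.79 ± 0.12 against BD (adjusted p = 1.86e-04) and 0.72 against HFD (adjusted p = 0.00575). Mat2a was the single member that was higher on MCD than on HFD. Mat1a, the hepatocyte synthetase, fell slightly (-0.27 ± 0.09, adjusted p = 0.0311), a call that 15 of 25 alternatives ended. Mthfd2, the mitochondrial folate enzyme that is usually low in adult liver, rose by 1.57 ± 0.28 (adjusted p = 5.73e-04).

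Shortage of amino acids is read by GCN2, which raises the factor ATF4. Of 30 tested ATF4 targets 10 rose (33.3%) and 1, Cth, fell, with a median of 0.40. The list's summed level did not follow the count, at 1571 to 2033 CPM in BD and 1272 to 1684 in MCD. Psat1 (chromosome 19, 15905123 to 15925059), of serine synthesis, was at 0.852, 0.826, 0.776, 0.853 and 0.425 CPM in BD and at 5.86, 4.15, 7.66, 4.43 and 3.76 in MCD, without overlap (2.92 ± 0.29, adjusted p = 3.35e-06). HFD livers held similar levels, 2.74 to 5.66 CPM (MCD against HFD 0.30, adjusted p = 0.483). Atf3, a stress-induced repressor, was at 0.568, 1.65, 0.948, 1.14 and 2.12 CPM in BD and at 6.18, 9.86, 6.15, 10.2 and 15.8 in MCD. The lowest MCD library was above the highest BD library (log2 fold change 2.71), and Atf3 was the member called higher than on HFD. That count of 1 was 0 without HFD replicate 1 or with the covariate for non-unique alignments, and 5 without HFD replicate 2. Nupr1, a stress cofactor, went from 0.568, 0.826, 0.517, 0.995 and 0.708 CPM to 7.20, 8.20, 3.52, 5.58 and 2.13 (2.88 ± 0.50, adjusted p = 6.38e-04). Fgf21, a fasting and stress hormone of the liver, rose by 2.74 ± 0.40 (adjusted p = 2.26e-04) and Trib3, a pseudokinase, by 1.21. Asns, asparagine synthetase and a classical target, was not called (0.14 ± 0.40, adjusted p = 0.838).

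The bases before the start sites of 3 of these genes are printed because each holds the letters of the composite element bound by ATF4 with a CCAAT enhancer binding protein. In every line the 200 bases before the listed start run 5′ to 3′ on the gene's strand, taken from RefSeq on GRCm38.p6, and capitals mark the match to TGATGNAA or its reverse complement.
Nupr1, chr7:126625471-126625670, minus strand: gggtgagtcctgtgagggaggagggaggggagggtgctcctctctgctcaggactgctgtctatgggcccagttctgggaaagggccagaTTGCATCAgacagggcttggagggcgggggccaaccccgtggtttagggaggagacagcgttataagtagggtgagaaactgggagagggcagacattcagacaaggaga
Atf3, chr1:191183334-191183533, minus strand: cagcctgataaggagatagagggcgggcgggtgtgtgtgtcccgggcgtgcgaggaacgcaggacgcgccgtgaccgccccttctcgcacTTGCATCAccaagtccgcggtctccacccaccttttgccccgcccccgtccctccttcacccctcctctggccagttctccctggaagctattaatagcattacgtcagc
Fgf21, chr7:45615491-45615690, minus strand: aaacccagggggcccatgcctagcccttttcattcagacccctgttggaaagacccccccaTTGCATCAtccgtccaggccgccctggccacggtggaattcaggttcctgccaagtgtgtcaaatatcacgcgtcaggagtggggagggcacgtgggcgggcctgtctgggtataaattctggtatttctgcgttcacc
The match ends 102 bases before the start in Nupr1 and in Atf3 and 131 in Fgf21, and it overlaps with no match of the other motifs searched. Over windows of 250 bases, searched on both strands, 24.2% of the 33 windows of this group held the letters, against 3.45% of all 32851 windows. These 3 genes were picked for print because they rose and held a match, and a match describes letters, not binding. The group was drawn up as ATF4 targets, so its share of windows says nothing about the diet. Other pairs of gene group and motif were searched too. The AP-1 motif TGANTCA in immediate early genes (0% of 26 windows, against 6.75% of all) was the only pair below the share of all windows.

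Genes of endoplasmic reticulum stress did not rise with them. Of 27 tested chaperone and degradation genes 0 rose and 2 fell (7.41%, near the 8.64% over all genes). Without MCD replicate 2 there were 4 calls in either direction. Those that fell were Edem1 (-0.49 ± 0.10, adjusted p = 0.00165) and Syvn1 (-0.68 ± 0.19, adjusted p = 0.0160), both of protein degradation. In the NRF2 group, the targets of the sensor of electrophiles, 8 of 41 rose (19.5%) and 6 fell (14.6%), with a median of -0.01. Hmox1, heme oxygenase, rose by 0.81 ± 0.12 (adjusted p = 1.68e-04), Gss, glutathione synthetase, by 0.79 ± 0.14 (adjusted p = 4.99e-04), and Sod3, an extracellular dismutase, by 0.87. Cat, catalase, fell by 0.39 ± 0.08 (adjusted p = 0.00160), and Nqo1 was not called (0.45, adjusted p = 0.237). Gsta1, an alpha class glutathione transferase, was at 0.852, 0.619, 0.948, 0.853 and 0.708 CPM in BD and at 4.48, 3.63, 1.01, 3.16 and 3.96 in MCD. Gsta1 was the 1 higher member of the group tested only through MCD. Its call (2.04, adjusted p = 0.0179) ended in 3 of 25 alternatives. Gsta2 fell by 0.97 against BD, yet MCD was above HFD by 1.86 (adjusted p = 0.00278). Both are uncertain, since alpha class genes are near-identical. Against HFD, 6 NRF2 members were higher on MCD and 0 were lower, with 17 without HFD replicate 2 and 3 without HFD replicate 1.

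**Figure D3:**
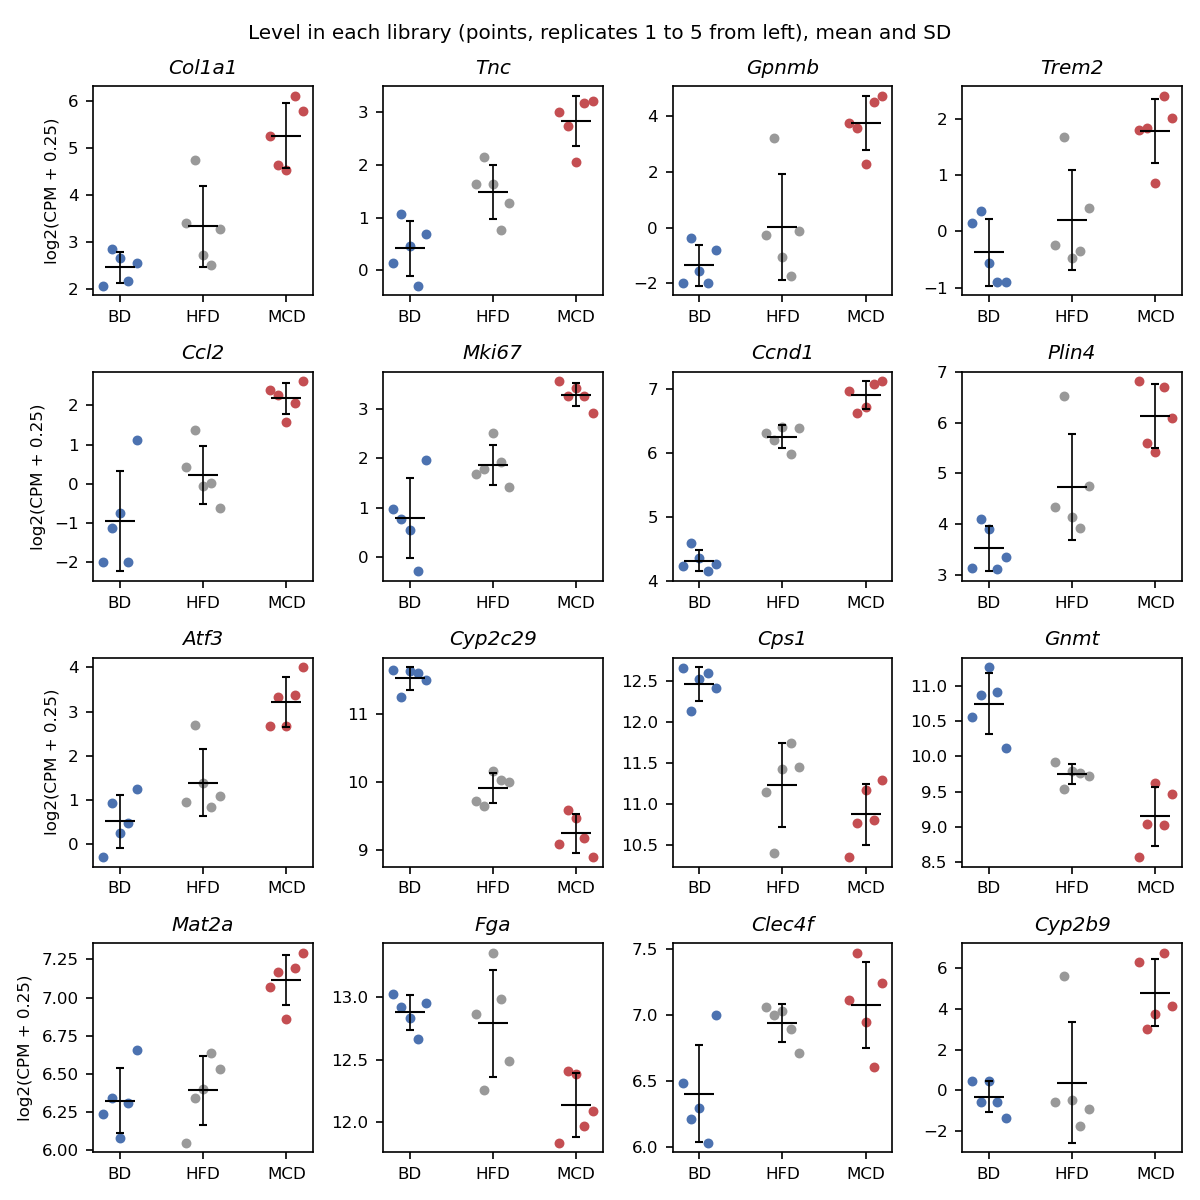
Level of 16 genes in each of the 15 libraries, log2(CPM + 0.25), by diet, with a point per library (replicates 1 to 5 from left), a bar for the mean and whiskers for the SD. MCD points lie above all BD points for Col1a1, Gpnmb, Ccl2 and Mki67 and below them for Cyp2c29, Cps1, Gnmt and Fga, they overlap for Clec4f, and HFD replicate 2 is the highest HFD point for Gpnmb, Plin4 and Cyp2b9.

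Macrophage genes rose broadly. Monocytes enter injured liver through the chemokine receptor CCR2 and become macrophages that take up lipid. Of 29 tested genes of recruited and lipid-associated macrophages 26 rose (89.7%) and 0 fell, with a median of 1.18. How many of these were tested only through MCD was not counted. Gpnmb and Trem2, given below, were, since most of their BD and HFD values lay under the filter's level of 0.970 CPM. The summed level of the whole list was 1895 to 2125 CPM in BD and 2897 to 3571 in MCD. Cd68, a lysosomal marker of macrophages, was at 10.5, 10.01, 8.88, 8.81 and 7.55 CPM in BD and at 18.5, 21.8, 21.0, 26.3 and 31.3 in MCD (1.39 ± 0.18, adjusted p = 5.31e-05). Itgax (chromosome 7, 128129526 to 128150657), the integrin CD11c, was at 1.42, 0.619, 0.776, 0.853 and 1.60 CPM in BD and at 9.20, 5.19, 4.59, 11.6 and 9.65 in MCD. The groups did not overlap for either gene, and Itgax was also above HFD (1.81, adjusted p = 0.0160).

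Gpnmb (chromosome 6, 49036518 to 49058182) was nearly silent in BD, at 0, 0.516, 0.0862, 0 and 0.330 CPM, and stood at 13.1, 11.5, 4.59, 22.7 and 26.4 in MCD (5.96 ± 1.18, adjusted p = 0.00300). MCD replicate 3 was the lowest of its group, and HFD replicate 2, at 9.06 CPM, fell within the MCD range. Trem2, a lipid receptor of the same cells, was at 0.852, 1.03, 0.431, 0.284 and 0.283 CPM in BD and at 3.23, 3.32, 1.57, 5.06 and 3.76 in MCD (2.70 ± 0.51, adjusted p = 0.00116). Ccr2 (chromosome 9, 124101918 to 124109140) went from 3.12, 1.14, 1.21, 1.85 and 1.98 CPM to 10.4, 6.75, 3.75, 9.20 and 4.98 (2.03 ± 0.37, adjusted p = 7.98e-04). Cx3cr1, another monocyte receptor, Lgals3, a galectin, and Clec7a, a fungal glucan receptor, rose by 2.64, 2.41 and 2.44. Gpnmb and Trem2 were not called against HFD (adjusted p = 0.0912 and 0.0617). Against HFD 7 members were higher and 1, Fabp5, was lower. Those 7 became 22 without HFD replicate 2 and 0 without HFD replicate 4, settings that called 1248 and 74 of all genes in either direction. Spp1, osteopontin, made by macrophages and bile duct cells, overlapped between diets (43.5 to 81.5 CPM in BD, 68.9 to 239 in MCD, adjusted p = 0.0253) and lost its call in 7 of 25 alternatives.

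Resident Kupffer cells have their own markers. In that group 12 of 19 rose (63.2%) and 0 fell, with a median of 0.66 and a summed level of 899 to 1291 CPM in BD and 1087 to 1428 in MCD. Clec4f, found only on Kupffer cells, was at 89.2, 74.0, 78.5, 65.1 and 127.7 CPM in BD and at 138, 177, 124, 97.2 and 151 in MCD. The values overlapped, since BD replicate 5 was above MCD replicates 3 and 4 (0.66 ± 0.17, adjusted p = 0.00990). Timd4, a marker of long-lived Kupffer cells, was at 7.38, 6.09, 7.07, 4.27 and 12.3 CPM in BD and at 9.24, 14.6, 10.9, 7.13 and 9.04 in MCD, and was not called (0.40 ± 0.23, adjusted p = 0.233). C1qb, of complement C1q, and Cd5l, a secreted macrophage protein, rose by 0.89 and 0.95, and Vsig4 by 0.58, which 5 of 25 alternatives ended. No member of this group was called between MCD and HFD (0 of 19), and 2 were higher and 1 lower without HFD replicate 2.

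Chemokines and innate sensors rose with the macrophage genes. Of 27 tested chemokines and cytokines 12 rose (44.4%), 3 of them tested only through MCD, and 2, Ccl9 and Cxcl12, fell. The list's summed level did not follow the count, at 829.1 to 874 CPM in BD and 760 to 831 in MCD. Ccl2, which draws CCR2 monocytes, was at 0, 0.206, 0.345, 0 and 1.94 CPM in BD and at 5.03, 4.57, 2.74, 3.91 and 5.89 in MCD. BD replicate 5 was high among its group but below all MCD libraries (2.53 ± 0.55, adjusted p = 0.00354). Il1rn, the interleukin 1 receptor antagonist, rose from 0.853 to 2.08 CPM over the BD libraries to 8.31 to 19.6 over the MCD libraries (2.98 ± 0.42, adjusted p = 1.70e-04). Ccl6 (1.34), the T cell chemokines Ccl5 (2.38) and Cxcl10 (1.77), and Il33 (1.15), an alarm cytokine, rose too. Ccl5, Ccl6 and Cxcl10 were the members called higher than on HFD (adjusted p = 0.0440, 0.0443 and 0.0371), a count of 3 that was 9 without HFD replicate 2 and 0 without HFD replicate 1. Tnf, with 7 counts in all BD and 61 in all MCD libraries, and Il6, with 4 and 6, were too rare to test.

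Of 30 innate sensing genes 17 rose (56.7%), 2 of them tested only through MCD, and 1, Tirap, fell. Tlr2, Tlr7 and Tlr13, receptors of microbial products, rose by 1.49, 1.46 and 1.94, and Relb, an NF-kappaB subunit, by 1.35 ± 0.22 (adjusted p = 3.00e-04). Tlr4, the endotoxin receptor, was not called (0.41, adjusted p = 0.184). Among interferon-stimulated genes 16 of 31 rose (51.6%) and 0 fell, with Usp18, Oas2, Oasl2 and Ifit2 higher by 1.49, 1.41, 1.41 and 1.25. No interferon gene was called between MCD and HFD, although 5 were higher without HFD replicate 2. MHC class II genes, which present antigen to helper T cells, rose in 8 of 10 cases (80.0%), of which 4 were called with the covariate for non-unique alignments. H2-Aa was at 44.6, 24.1, 34.4, 36.4 and 57.4 CPM in BD and at 111, 76.6, 67.2, 93.0 and 77.2 in MCD (1.11 ± 0.29, adjusted p = 0.0120), with no overlap, and the covariate for non-unique alignments ended its call (adjusted p = 0.0860). Cd74, the invariant chain, and Cd86, a costimulator, rose by 0.999 and 1.13. Lysosomal genes rose in 11 of 31 cases (35.5%), with Hexa and Ctss, lysosomal hydrolases, at 1.04 and 1.21.

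Lymphocytes and granulocytes were harder to see at this depth. The T cell genes Cd3e, Cd3g and Cd8a were below the count filter, with 17, 28 and 15 counts in all BD and 73, 70 and 110 in all MCD libraries. Totals of counts, here and for other untested genes, are not scaled for depth, which averaged 11139026 gene counts in BD and 15147187 in MCD. Mean levels of Cd3e, Cd3g and Cd8a were 0.324, 0.641 and 0.297 CPM in BD and 0.884, 0.799 and 1.24 in MCD. The neutrophil genes S100a8 and S100a9 had 10 and 15 counts in BD and 52 and 80 in MCD. Both tested neutrophil genes, Csf3r and Lcn2, rose. Csf3r, a receptor of granulocyte growth, was at 0.929 to 2.41 CPM in BD and 3.01 to 3.76 in MCD, and the list's sum of 5.69 to 7.53 CPM in BD and 29.9 to 65.8 in MCD was mostly Lcn2. The T and NK cell list summed to 20.02 to 32.5 CPM in BD and 39.5 to 48.8 in MCD. The part of these cells in the chemokine and innate groups was not tested. Of 7 tested T and NK cell genes 1 rose, Ptprc, a marker of all leukocytes (1.28 ± 0.20, adjusted p = 2.26e-04), and 1 fell (4 calls in either direction without BD replicate 5), Cd4 (-1.39 ± 0.33, adjusted p = 0.00482). Of 5 tested B cell genes Cd22 rose and Sdc1, which hepatocytes also express, fell. Dendritic cell genes rose in 5 of 8 cases (62.5%), of which Itgax and Ccr2 are shared with macrophages. Of the 5, 1 was tested only through MCD. Lcn2, lipocalin 2, listed for neutrophils and for the acute phase, was higher on MCD (24.1 to 59.3 CPM against 1.99 to 5.57), but its call (adjusted p = 0.0462) ended in 13 of 25 alternatives. HFD replicate 2 held 182 CPM of Lcn2, the highest of all libraries.

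Plasma proteins of the hepatocyte were mostly lower or not called. Of 39 tested acute phase and complement genes 12 fell (30.8%) and 4 rose (10.3%). Fga (chromosome 3, 83026153 to 83033627), the fibrinogen alpha chain, was at 8342, 7767, 7307, 6494 and 7926 CPM in BD and at 3639, 5431, 5337, 4009 and 4344 in MCD. The groups did not overlap (-0.73 ± 0.17, adjusted p = 0.00446), and MCD was below HFD as well (-0.69, adjusted p = 0.0354). Fgb, the beta chain, fell by 0.62, a call that the covariate for non-unique alignments ended. Itih3, a hyaluronan-binding inhibitor, fell by 0.65 ± 0.10 (adjusted p = 2.16e-04) and Hc, complement C5, by 0.64 ± 0.13 (adjusted p = 0.00137), and both were below HFD (adjusted p = 0.00437 and 0.0258). Saa3, a serum amyloid A made largely by macrophages, rose from 2.27, 2.06, 1.81, 3.70 and 3.82 CPM to 6.06, 10.6, 7.21, 6.90 and 8.33 (1.46 ± 0.24, adjusted p = 3.03e-04) and was above HFD (1.07, adjusted p = 0.0181). Leaving out BD replicate 1, MCD replicate 1 or MCD replicate 4 lowered the calls in this group from 16 to 9, 9 and 10.

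Matrix genes rose broadly. Fibrosis in liver comes mainly from hepatic stellate cells, which store retinoids at rest and turn into collagen-making myofibroblasts under PDGF and TGF beta. Of 28 tested collagen and structural matrix genes 23 rose (82.1%) and 0 fell, with a median of 1.08. The summed level of the list overlapped between diets, at 3265 to 4678 CPM in BD and 2583 to 5035 in MCD, with MCD replicate 2 the lowest of all libraries. Fn1 alone supplied 1969 to 2726 CPM of it in BD and 1357 to 2574 in MCD. Col1a1 (chromosome 11, 94936224 to 94953042), a chain of fibrillar collagen I, was at 3.98, 7.02, 6.12, 4.27 and 5.66 CPM in BD and at 38.1, 24.7, 22.8, 69.3 and 55.2 in MCD. The lowest MCD library was above the highest BD library (2.91 ± 0.45, adjusted p = 4.88e-04). Its partner chain Col1a2 went from 11.1, 14.2, 14.6, 12.8 and 15.01 CPM to 68.6, 54.9, 33.8, 99.6 and 72.5 (2.26 ± 0.32, adjusted p = 2.26e-04). Col3a1 (chromosome 1, 45311538 to 45349706), of collagen III, went from 39.8, 41.9, 39.8, 36.5 and 52.4 CPM to 200, 135, 109, 295 and 192 (2.14 ± 0.31, adjusted p = 2.47e-04). In all 3 genes MCD replicate 4 was the highest and MCD replicate 3 the lowest.

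Those 3 collagens were also above HFD, by 1.83, 1.57 and 1.52 (adjusted p = 0.0338, 0.0169 and 0.0171). Col5a2 and Col14a1, which regulate fibril assembly, rose by 1.81 and 1.08. Fn1, fibronectin, much of it a plasma protein of hepatocytes, was not called (-0.25, adjusted p = 0.283). Against HFD 13 members were higher and 1, Col15a1, was lower. The 13 became 19 without HFD replicate 2 and 1 without HFD replicate 4. With a covariate for non-unique alignments 14 of the 28 were called against BD and 0 against HFD. Non-unique alignments per gene count were lower in MCD, as given above.

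Crosslinkers, proteases and matricellular proteins followed. In this group 24 of 33 rose (72.7%), 3 of them, Mmp12 included, tested only through MCD, and 2 fell, with a median of 1.22. Tnc (chromosome 4, 63959785 to 64047015), tenascin C, a matricellular protein of wounds, was at 0.852, 1.86, 1.12, 0.569 and 1.37 CPM in BD and at 7.71, 6.44, 3.92, 8.80 and 9.04 in MCD (2.53 ± 0.31, adjusted p = 3.33e-05). The groups were apart, and Tnc was above HFD by 1.44 (adjusted p = 0.0132). Mmp12 (chromosome 9, 7344397 to 7360461) was at 0.284, 0.413, 0.0862, 0.284 and 0.519 CPM in BD and at 14.1, 15.9, 6.38, 21.2 and 30.6 in MCD (5.60 ± 1.33, adjusted p = 0.00948, with a log2 fold change of 3.61 under the covariate). HFD replicate 2 held 21.7 CPM of it and the other HFD libraries 0.145 to 0.948. Mmp13, a collagenase (4.69), Mmp2, a gelatinase (1.47), Loxl2, a lysyl oxidase (1.40), Ccdc80 (1.37) and Postn, periostin (1.51), rose, and each was above HFD. Of 33 members 14 were above HFD, 22 without HFD replicate 2 and 4 without HFD replicate 4. Timp1, an inhibitor of these proteases, had 6 counts in all BD and 132 in all MCD libraries and was below the count filter. Loxl4, another lysyl oxidase, fell, from 10.5, 7.22, 10.2, 16.6 and 9.16 CPM to 2.60, 3.01, 3.13, 2.93 and 2.95 (-1.87 ± 0.23, adjusted p = 3.12e-05). HFD held 1.35 to 4.03 CPM of Loxl4, and MCD against HFD was 0.16 (adjusted p = 0.772). The other member that fell was Mmp19.

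Stellate cell genes rose in 15 of 29 cases (51.7%) and fell in 0, with a median of 0.61 and a summed level of 297 to 323 CPM in BD and 407 to 531 in MCD. Pdgfrb, the PDGF receptor of these cells, was at 14.8, 13.3, 13.5, 15.2 and 13.1 CPM in BD and at 32.1, 20.5, 23.8, 32.8 and 26.6 in MCD (0.97 ± 0.15, adjusted p = 1.97e-04). All MCD libraries were above HFD too (12.1 to 20.1 CPM, adjusted p = 0.00739). Vim, an intermediate filament (1.31), Ltbp2, a TGF beta binding protein (1.54), and Pdgfra (0.90) rose. Lrat, which makes the retinyl esters of resting stellate cells, also rose (0.75 ± 0.14, adjusted p = 8.64e-04). Acta2, the smooth muscle actin that defines myofibroblasts, overlapped between diets (3.69 to 7.11 CPM in BD, 5.15 to 16.3 in MCD, 0.85 ± 0.29, adjusted p = 0.0468), and 9 of 25 alternatives ended its call. Tgfb1 was not called (0.63, adjusted p = 0.117). In the smooth muscle and mesothelium group 0 of 5 tested members were called, among them Myh11 (0.32, adjusted p = 0.383), Des (0.28, adjusted p = 0.287), Msln (0.79, adjusted p = 0.363) and Smtn (0.41, adjusted p = 0.317).

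Endothelial genes moved less. Of 30 tested sinusoidal and adhesion genes 8 rose (26.7%) and 1, Gata4, fell. Vcam1, which binds leukocytes, was at 10.2, 7.33, 7.85, 9.38 and 16.4 CPM in BD and at 41.3, 32.6, 28.1, 36.9 and 41.4 in MCD (1.79 ± 0.25, adjusted p = 1.25e-04), without overlap. Icam1, another adhesion molecule, rose by 1.14 and was above HFD (0.79, adjusted p = 0.0450). Stab2, a scavenger receptor that defines sinusoidal cells, rose by 0.44 ± 0.09 (adjusted p = 0.00175), and Pecam1 by 0.52. The list summed to 684 to 808 CPM in BD and 794 to 942 in MCD.

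**Figure D4:**
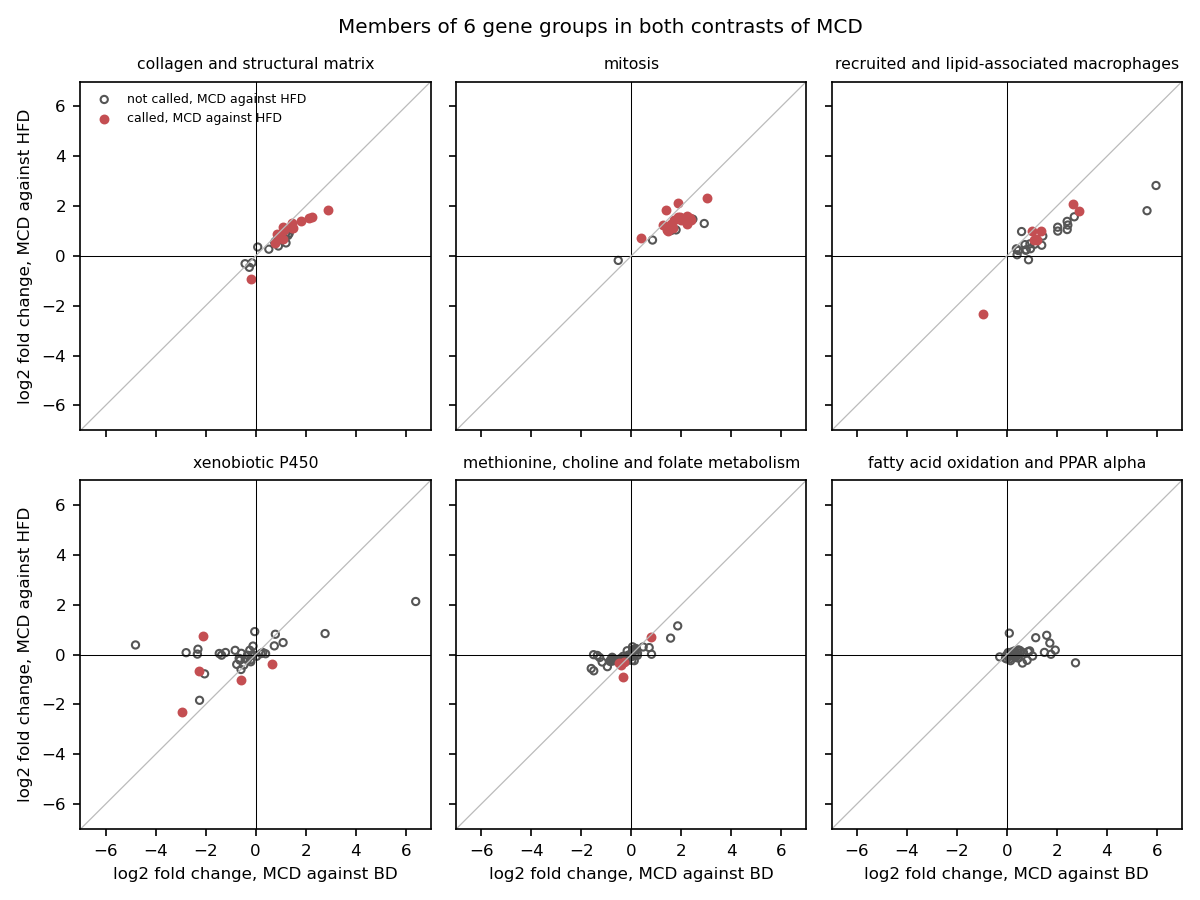
Log2 fold change of MCD against HFD (vertical axis) plotted against that of MCD against BD (horizontal axis) for the tested members of 6 gene groups, with a point per gene, filled where MCD against HFD was called, and a grey diagonal of equal change. Both axes share the MCD libraries. Most collagen and mitosis members lie above 0 on both axes, with 13 and 19 called higher than HFD, while fatty acid oxidation members lie near 0 on the vertical axis, with 0 called.

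Genes of cell division were higher on MCD. Of 25 tested mitosis genes 23 rose (92.0%) and 0 fell, with a median of 1.87. Of the 29 listed, 4 were below the count filter (43 to 119 counts in all MCD libraries, 3 to 15 in all BD libraries). Only 14 of the 25 reached the filter's level of 0.970 CPM in 5 libraries of BD and HFD, and 12 of these rose. The other 11 entered through MCD, where they are high, and all 11 rose, so the share of 92.0% describes the tested members and supports nothing by itself. Against HFD, 19 were higher (background 2.22%), with a median of 1.43, and HFD against BD called 0 of them (background 3.65% higher). The MCD count against HFD was 9 without HFD replicate 4 and 21 without HFD replicate 2. Whether hepatocytes or other cells carried these transcripts cannot be told apart in whole liver. Levels were low, with a summed level over the list of 45.0 to 68.9 CPM in BD and 97.4 to 125 in MCD. With a minimum of 50 counts in 5 libraries only 7 members remained to test and 5 were called. Cdc20 (chromosome 4, 118432901 to 118437343), the activator of the anaphase-promoting complex, was at 0.568, 0.310, 0.431, 0.142 and 0.614 CPM in BD and at 4.80, 5.61, 2.80, 1.78 and 3.35 in MCD. The groups did not overlap (3.02 ± 0.38, adjusted p = 3.62e-05). Mki67 (chromosome 7, 135689784 to 135716450), the Ki-67 protein of cycling cells, was at 1.70, 1.45, 1.21, 0.569 and 3.63 CPM in BD and at 11.5, 9.34, 10.5, 9.38 and 7.31 in MCD (2.33 ± 0.31, adjusted p = 5.85e-05). Its HFD values of 2.43 to 5.45 CPM lay below all MCD values. Ccna2, cyclin A2, Prc1, a spindle midzone protein, Foxm1, a factor of G2 genes, and Plk1, a mitotic kinase, rose by 1.96, 1.93, 2.29 and 1.87.

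Promoters of 3 of them are printed because genes of this phase share the cell cycle genes homology region, a short element near the start site bound by the DREAM and MuvB complexes. The 200 bases before the listed start are given 5′ to 3′ on the gene's strand, from RefSeq on GRCm38.p6, and capitals mark TTTGAA or TTTAAA.
Cdc20, chr4:118437344-118437543, minus strand: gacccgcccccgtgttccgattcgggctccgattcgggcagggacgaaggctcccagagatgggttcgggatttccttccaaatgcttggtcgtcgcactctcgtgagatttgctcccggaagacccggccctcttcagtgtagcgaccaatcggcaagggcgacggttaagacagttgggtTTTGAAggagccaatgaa
Mki67, chr7:135716380-135716579, minus strand: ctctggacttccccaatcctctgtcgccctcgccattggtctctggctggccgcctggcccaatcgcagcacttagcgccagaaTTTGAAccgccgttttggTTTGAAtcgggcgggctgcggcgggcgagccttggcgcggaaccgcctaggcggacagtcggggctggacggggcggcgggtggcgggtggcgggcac
Plk1, chr7:122159235-122159434, plus strand: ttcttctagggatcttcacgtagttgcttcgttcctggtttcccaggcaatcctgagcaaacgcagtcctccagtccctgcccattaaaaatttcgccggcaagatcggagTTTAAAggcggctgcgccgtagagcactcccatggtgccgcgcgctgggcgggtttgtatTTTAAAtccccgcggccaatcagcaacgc
The nearest match ended 12 bases before the start in Cdc20, 92 in Mki67 and 23 in Plk1. The listed start of Mki67 lies inside the gene position given above, so part of its printed bases falls within that position. Over windows of 250 bases and both strands, 63.6% of the 22 windows of the mitosis group held either motif, against 25.2% of all 32851 windows, and 13 of the 20 members with a listed promoter had a match. The 3 were picked for print because they rose and held a match, and a match describes letters, not binding. The group was drawn up as mitosis genes, so its share of windows says nothing about the diet.

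Other phases of the cycle moved less. Of 29 DNA replication genes 9 rose (31.0%) and 1, Tk1, a thymidine kinase, fell (-0.97 ± 0.14, adjusted p = 8.54e-05). Of the 9, 2 were tested only through MCD. Mcm5 and Mcm6, subunits of the replicative helicase, and Lig1, a DNA ligase, rose by 1.66, 1.27 and 1.43, and Uhrf1, a methylation maintenance factor, by 2.25. Pcna, the sliding clamp, was not called (0.09, adjusted p = 0.725). Of 28 G1 cyclins, inhibitors and p53 targets 10 rose (35.7%) and 0 fell, with 6 called without BD replicate 3, after thinning or under the stricter filter. Of these 10, 2 were tested only through MCD. Ccnd1 (chromosome 7, 144929931 to 144939831), cyclin D1, the G1 cyclin of growth signals, had the smallest p of all genes tested. It was at 18.5, 23.8, 20.2, 17.5 and 18.9 CPM in BD and at 125, 98.5, 105, 134 and 138 in MCD (2.60 ± 0.12, adjusted p = 1.89e-10). HFD was in between at 62.5 to 83.9 CPM, below every MCD library (0.66, adjusted p = 0.00666). Eda2r and Phlda3, targets of p53, rose by 2.92 and 1.85, and Cdkn1a, the p53-induced inhibitor p21, was not called (0.31, adjusted p = 0.595). Cell death genes rose in 10 of 24 cases (41.7%) and fell in 2. These 12 calls became 7 without BD replicate 3, 6 without MCD replicate 1 or MCD replicate 4, and 5 once the covariate was added. Tnfrsf12a, the TWEAK receptor, Mlkl, the executor of necroptosis, and Casp12 rose by 1.57, 1.05 and 1.09.

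Immediate early genes, which respond within minutes to growth factors and stress, rose in 10 of 23 cases (43.5%), and 6 were above HFD, 9 without HFD replicate 2 and 0 without HFD replicate 4. Of the 10 that rose, 2 were tested only through MCD, among them Egr2. Egr2 was at 0, 0.103, 0.0862, 0.142 and 0.519 CPM in BD and at 1.81, 1.56, 1.29, 2.42 and 4.57 in MCD (3.14 ± 0.67, adjusted p = 0.00259, or 0.0800 with the covariate for non-unique alignments). Klf6, Maff and Btg2 rose by 1.56, 1.92 and 1.32, and Nr4a1 by 1.95, a call that limma-voom did not make (adjusted p = 0.228). The group's mean level relative to BD ran from 0.43 to 1.64 log2 over the MCD libraries, with MCD replicate 1 the lowest and MCD replicate 5 the highest. Clock genes shifted in both directions, 10 of 20 higher and 6 lower, and 0 differed between MCD and HFD. Dbp (5.46), Per3 (3.15) and Nr1d2 (1.52) were higher, and Arntl (-2.42), Npas2 (-3.29) and Cry1 (-1.62) were lower. The hour of sampling per diet is not given in the sources used here, and clock phase and diet cannot be told apart.

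Ductular and fetal markers were partial. Of 14 tested ductular and progenitor genes 4 rose and 2 fell. These 6 calls became 2 without BD replicate 3 or MCD replicate 1, 3 without MCD replicate 4 and 1 once the covariate was added. Krt19 and Epcam, which define cholangiocytes, were not called (0.13, adjusted p = 0.808, and 0.84, adjusted p = 0.190), Krt23 rose by 1.67 ± 0.37 (adjusted p = 0.00325), and Cd24a by 1.16, which 5 of 25 alternatives ended. Sox9, a factor of ducts and periportal hepatocytes, fell from 11.4, 13.5, 9.92, 7.11 and 10.6 CPM to 6.33, 5.30, 6.04, 6.73 and 4.47 (-0.85 ± 0.21, adjusted p = 0.00777, or 0.0527 with the covariate). Fetal liver and hepatocellular carcinoma genes rose in 10 of 15 cases (66.7%), a count of 6 without BD replicate 5, MCD replicate 1 or MCD replicate 4. Of the 10, 2 were tested only through MCD, among them Ly6d. Ly6d (chromosome 15, 74762056 to 74763567) was at 0.852, 1.03, 0.948, 0.284 and 0.614 CPM in BD and at 34.1, 8.82, 11.4, 35.0 and 36.5 in MCD (5.07 ± 1.20, adjusted p = 0.00940, with a log2 fold change of 2.91 under the covariate). Anxa2, a membrane-binding annexin, went from 10.8, 10.2, 11.6, 15.5 and 16.8 CPM to 96.4, 63.4, 28.2, 68.8 and 46.7 (2.21 ± 0.41, adjusted p = 0.00185), and Cd44 and Anxa5 rose by 1.19 and 1.41 and were above HFD (adjusted p = 0.0485 and 0.0472).

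The MCD libraries differed widely among themselves in genes under growth hormone and sex control. Pulses of growth hormone act through STAT5B to set male patterns in mouse liver. Of 31 tested members 7 fell (22.6%) and 1, Igfbp3, rose, and these 8 calls became 5 without MCD replicate 1. Serpina1e (chromosome 12, 103946931 to 103956897), an antitrypsin of the male pattern with near-identical copies, was at 7820, 9577, 5586, 7824 and 11420 CPM in BD and at 518, 2324, 1969, 613 and 1386 in MCD. MCD replicates 1 and 4 were the lowest, HFD replicate 2 was lower still at 165, and the log2 fold change of -2.63 ± 0.72 (adjusted p = 0.0208) lost its call in 3 of 25 alternatives. Elovl3, an elongase of male liver, went from 1030, 831, 1003, 1135 and 1154 CPM to 144, 363, 315, 106 and 186 (-2.21 ± 0.43, adjusted p = 0.00234), again lowest in MCD replicates 1 and 4 and, at 96.3, in HFD replicate 2. Rad51b, a recombination gene, was highest in the same libraries, at 29.3 and 20.9 CPM, against 7.82 to 12.2 in the other MCD libraries and 0.661 to 1.55 in BD. Igf1 and Stat5b fell by 0.54 and 0.75, and Igf1 was also below HFD (-0.44, adjusted p = 0.0385). Of 9 tested female-biased genes 3 rose, Cyp2b9, Cyp4a10 and Ntrk2, and 3 fell, Cyp3a16, Cyp2c69 and Prlr. The mean level of the 9 tested members relative to BD ran from 0.19 to 1.36 log2 in MCD. In BD it ran from -0.71 to 0.35, so the diets overlapped. Cyp2b9, with a log2 fold change of 6.40, is among the 9 and was tested only through MCD.

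**Figure D5:**
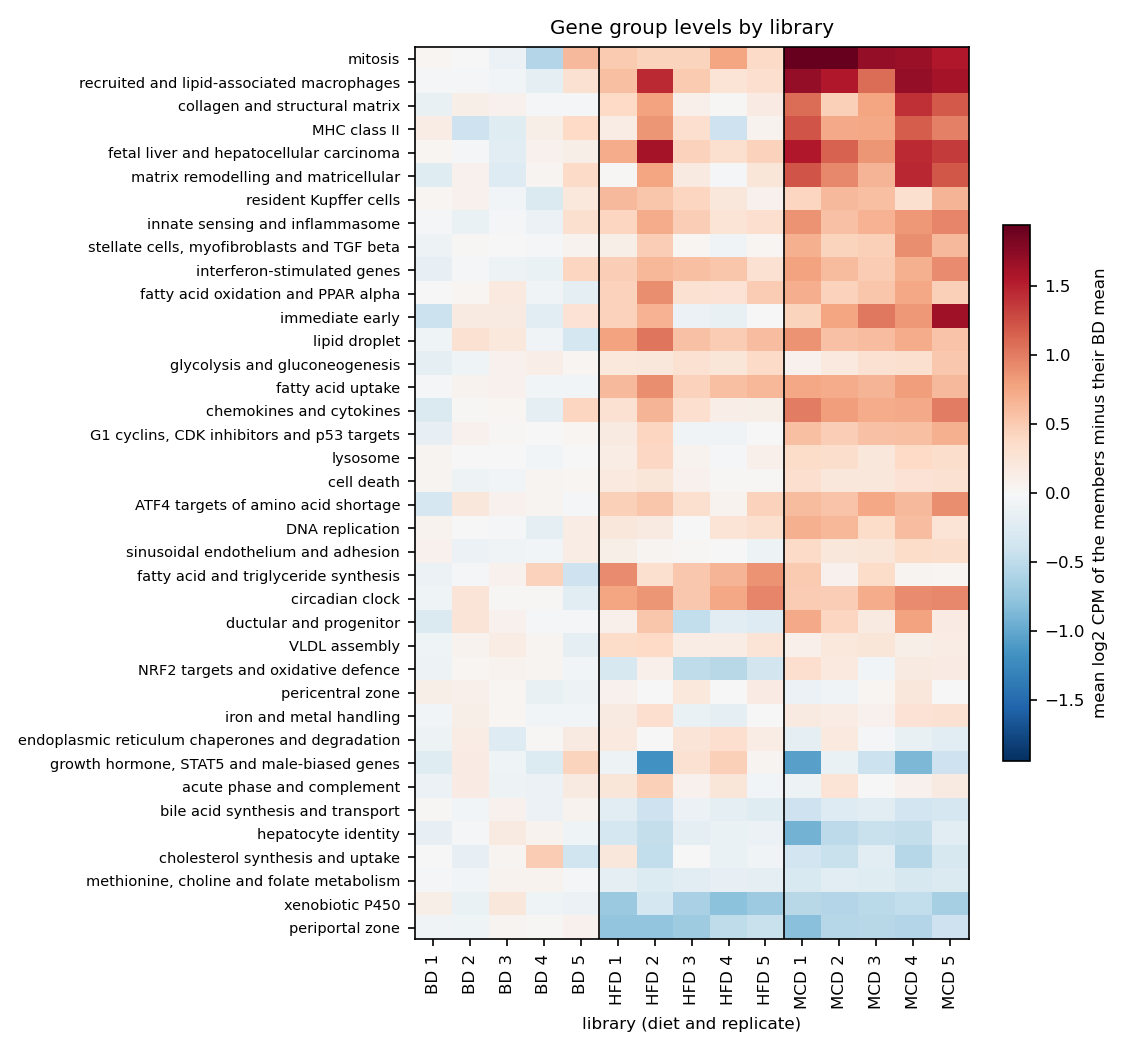
Mean level of the tested members of 38 gene groups in each of the 15 libraries, as log2 CPM minus the mean of the BD libraries (red above, blue below; columns are libraries, lines separate BD, HFD and MCD). Mitosis lies between 1.55 and 1.94 in all MCD libraries and between 0.37 and 0.76 in HFD, recruited macrophages are lowest in MCD replicate 3 (1.08), and HFD replicate 2 is the highest HFD column in the macrophage, collagen and fetal liver rows.

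Iron and metal genes were evenly split, 4 of 26 higher (15.4%) and 4 lower (15.4%), against 12.8% and 8.64% over all genes. Of the 4 higher members, 1 was tested only through MCD. Tfr2, an iron sensor of hepatocytes, fell by 0.64 ± 0.13 (adjusted p = 0.00118), Slc30a10, a manganese exporter, by 1.19 ± 0.21 (adjusted p = 8.43e-04), and Steap3, a ferrireductase, by 0.56, while Hamp2, a hepcidin, rose by 1.37 ± 0.31 (adjusted p = 0.00446). Of 2 tested red cell genes, Alas2 (-0.05, adjusted p = 0.841) and the globin listed as Beta-s (0.26, adjusted p = 0.441), 0 were called. Of 2 tested pancreas and adipose genes 1, Cela1, fell (-1.15), and Cfd was not called (2.40, adjusted p = 0.138).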

How the data were processed

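RNA from 15 mouse liver samples was sequenced after polyA selection with a stranded kit. The submitters' processing notes name Trimmomatic, TopHat2 2.0.13, HTSeq and DESeq2 and the genome build GRCm38. Which annotation, strand option and counting mode the authors chose is not given in the sources used here. The deposited values are raw counts per gene. Reads without a gene (12.7 to 17.0% of uniquely aligned reads) or in an ambiguous position (0.567 to 0.841%) stayed out of library sizes, as did non-unique alignments. Reads of near-identical genes can therefore be undercounted.

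Libraries were grouped by diet label. Genes passing edgeR's filterByExpr (minimum count 10, minimum total 15) were fitted across all 15 libraries in 1 model (edgeR 4.0.16, R 4.3.3, TMM, robust quasi-likelihood, common BCV 0.176), with contrasts MCD minus BD, MCD minus HFD and HFD minus BD, and Benjamini-Hochberg adjustment. CPM in the text is scaled by gene counts times the TMM factor. Tested on simulated counts for MCD against BD (11863 genes), the fit recovered 23 of 50 genes changed 1.5-fold, 41 of 50 at 2-fold, 49 of 50 at 4-fold and 50 of 50 at 8-fold, with 2.98% false calls. Only these genes were changed in the simulation, as many up as down. In the data 21.4% of genes were called, more of them higher than lower, so this share of false calls may not carry over.

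Named genes were the 12 largest increases and 12 largest decreases that were called, did not overlap and reached 5 CPM in the higher diet, the 4 members of each gene group with the smallest p, and the 6 genes outside the groups with the smallest p. Another 59 genes, and members that make up a small count, were chosen after their values were seen. The comparison and the gene groups were chosen with earlier results of these data known. Alternatives were DESeq2 1.42.0, limma-voom 3.58.1, other scalings and filters, thinning, a covariate for non-unique alignments, and leaving out each library. The setting without MCD replicate 3 and HFD replicate 2 was chosen after seeing the data. Promoter sequences and gene positions are from RefSeq, GRCm38.p6. Some genes are not reported here.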

Additional observations from a re-analysis of the deposited data

Results flagged for a closer look

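Of 134 groups of 5 libraries (52 genes and 15 gene groups), 5 held a library far from the other 4 by Dixon's test, and chance flags about 1 in 20. BD replicate 5 was high for Ccl2, at 1.94 CPM with the nearest BD library at 0.345, and for Egr2, at 0.519 against 0.142, and low for Psat1, at 0.425 against 0.776. For Cyp27a1, BD replicate 2 was low at 624 CPM, with the nearest at 703. The mean level of the recruited macrophage group was low in MCD replicate 3, at 1.08 log2 above the BD mean, with the nearest MCD library at 1.56. For these 4 genes every MCD library still lay outside the BD range.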

How the results depend on the processing

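No paired analysis was possible because the labels carry no replicate numbers that groups share; the numbers used here only follow the sample order. Against BD, 187 of the 218 named genes that were called kept the call in every alternative that gave a value (25 were run), and of 6189 pairs of gene and alternative 6061 kept direction and call. Genes called in MCD against BD went from 2610 to 1446 at an adjusted p under 0.01 (935 higher, 511 lower) and 799 over 2-fold (649 higher, 150 lower), to 512 lower without TMM factors, and to between 1938 and 2809 with 1 library left out; higher genes then ranged from 1226 to 1714 and lower genes from 712 to 1241. Genes called in MCD against HFD went from 384 to 701 with DESeq2, 247 with the stricter filter, 224 with 10 libraries, 171 after thinning, 82 with the covariate, 1365 without the 2 doubted libraries, 43 at an adjusted p under 0.01 and 156 over 2-fold, and to between 74 and 1248 with 1 library left out. By group, called members over 2-fold were 2 for lipid droplet, 6 for fatty acid oxidation, 1 for cholesterol, 14 for P450, 8 for methionine, choline and folate, 4 for stellate, 3 for acute phase and 6 for periportal genes. At an adjusted p under 0.01 they were 4 for lipid droplet, 3 for cholesterol and 6 for acute phase genes. Cholesterol gave 3 without TMM factors and 3 to 11 with 1 library left out, and acute phase 9 with the covariate and 9 to 18 with 1 left out. Collagen gave 14 with the covariate, chemokines 9 with the stricter filter and 9 after thinning, and mitosis 5 and 9, where fewer members were tested. Among the remaining groups, the covariate gave 6 calls for immediate early, 6 for lysosomal, 3 for female-biased, 2 for dendritic cell and 1 for B cell genes, and scaling without TMM factors 20 for lysosomal, 16 for DNA replication and 4 for endoplasmic reticulum genes. Signs turned for genes that were not called: Alas2 (0.084 without TMM factors, 0.18 with the covariate, -0.18 to 0.0093 with 1 library left out), Smtn (-0.0017 with the covariate), Alb (-0.000415 with voom, and -0.083 to 0.081 with 1 library left out), Asns (-0.082 to 0.40) and Scd1 (-0.078 to 0.34) with 1 library left out, Krt19 (-0.20 with the covariate) and Pemt (0.0088 without TMM factors). Other than where fewer members or libraries were used, the cause was not tested. At the shallowest library, 3 counts are 0.810 CPM, which limits statements on genes near that level.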
